A study of Mus musculus with 2 samples.

Results

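Voltage-gated sodium channel and HCN channel genes were followed across the nuclei of 2 single-nucleus RNA libraries of mouse hippocampus. They are 8 of the 55357 genes in the deposited tables, found by their symbols. They comprise the pore-forming sodium channel subunits Scn1a (ENSMUSG00000064329), Scn2a (ENSMUSG00000075318), Scn3a (ENSMUSG00000057182) and Scn8a (ENSMUSG00000023033), the auxiliary beta subunits Scn2b (ENSMUSG00000070304) and Scn3b (ENSMUSG00000049281), and the HCN subunits Hcn2 (ENSMUSG00000020331) and Hcn4 (ENSMUSG00000032338). Every symbol had 1 row in each library. One library, called Cre-labelled here, came from Bcas2F/F mice (Bcas2 flanked by loxP sites) that received AAV2/9-Syn-cre, an adeno-associated virus whose synapsin promoter drives Cre in neurons. Its genotype label is Bcas2 knockdown. The control library came from Bcas2F/F mice that received AAV-vehicle, although its genotype label reads WT; which is right cannot be read from the labels. How many mice were pooled, their age, the time after injection and which part of Bcas2 is floxed are not stated in the labels. Each group is a single library, so the spread over animals is unknown and no p-value can be given. All values describe these libraries, and their 95% intervals cover counting error only.

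A voltage-gated sodium channel is formed by a large alpha subunit, which holds the pore and the voltage sensor, and by beta subunits that modulate its gating and placement. The alpha subunits start and carry the action potential, and neurons concentrate them at the axon initial segment and the nodes of Ranvier. HCN channels open on hyperpolarization, are modulated by cyclic AMP and carry the h-current, which shapes resting potential, dendritic integration and rhythmic firing. By its labels, the comparison addresses what loss of Bcas2, a splicing factor, does to hippocampal cells. These genes bear on neuronal excitability, but their RNA levels here are no measure of it.

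The Cre-labelled library held 90594923 UMIs (unique molecular identifiers, 1 for each captured RNA molecule) in 16693 barcodes and the control 41781481 in 12621, and 56 barcode sequences occurred in both. After filters, 12359 and 11196 nuclei remained. Clusters of both libraries together were named from marker genes, and a named class carries the ending "-like". All 10 granule cell markers of the dentate gyrus (DG) and all 8 CA1 markers were detected in their clusters, as the tissue label asks. A further cluster of 285 and 66 nuclei had all 10 markers of medium spiny neurons, a striatal type. The cell mix of the libraries differed widely. Named neuronal classes made up 48.8% of the nuclei in the Cre-labelled library and 8.35% in the control, and oligodendrocyte-like nuclei 16.7% and 48.8%. Levels of Bcas2 were 33.8 CPM in the Cre-labelled library and 33.9 in the control in DG granule-like nuclei (CPM, a gene's UMIs scaled to the total UMIs of the class), and 46.5 and 45.2 CPM in GABAergic-like nuclei. These 3' tags check nothing where they lie outside the deleted part, so each direction below rests on the label.

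Some sodium channel genes lie side by side, whereas neither Hcn2 nor Hcn4 has a gene of these families as its coding neighbour. By the RefSeq annotation of GRCm38.p6, Scn1a, Scn2a and Scn3a are on chromosome 2, where Scn3a is the coding neighbour of Scn2a and Scn9a that of Scn1a. Scn2b, Scn3b and Hcn4 are on chromosome 9, with Scn4b next to Scn2b. Scn8a is on chromosome 15 and Hcn2 on chromosome 10. Promoter windows of 300 bases, from 250 before to 50 after the start, were found in RefSeq for 6 of the 8 genes. The windows of Hcn2 and Scn1a are shown because these genes differed between the libraries in opposite directions in oligodendrocyte-like nuclei, as given below. Capitals mark GGGCGG on either strand, the GC box bound by Sp-family factors.
Hcn2 (GRCm38.p6, chr10:79716384-79716683, plus strand): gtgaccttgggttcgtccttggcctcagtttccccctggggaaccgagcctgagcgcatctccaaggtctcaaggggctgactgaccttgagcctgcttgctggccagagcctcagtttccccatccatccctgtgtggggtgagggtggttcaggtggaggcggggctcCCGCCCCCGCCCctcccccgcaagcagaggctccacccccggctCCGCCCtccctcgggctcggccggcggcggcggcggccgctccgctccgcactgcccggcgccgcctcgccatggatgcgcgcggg
Scn1a (GRCm38.p6, chr2:66440788-66441087, minus strand): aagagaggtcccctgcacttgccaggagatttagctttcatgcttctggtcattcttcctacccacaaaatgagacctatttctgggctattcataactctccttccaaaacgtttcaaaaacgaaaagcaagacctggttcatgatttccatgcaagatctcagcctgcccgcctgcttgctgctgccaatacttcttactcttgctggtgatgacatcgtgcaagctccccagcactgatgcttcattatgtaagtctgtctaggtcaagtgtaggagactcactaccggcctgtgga
The Hcn2 window was 72.3% G and C with 26 CpG dinucleotides and 3 GC boxes, and the Scn1a window 47.3% with 5 CpG dinucleotides and no box. Scn8a, also higher in oligodendrocyte-like nuclei of the Cre-labelled library, had windows of 70.0% (38 CpG dinucleotides) and 53.3% (12). The windows of Scn2a were 33.0% and 47.7% G and C and that of Scn2b 38.3%. Whether these windows bear on the directions was not tested. Over all 32851 windows of that length the median was 52.7% G and C (quartiles 45.7% and 61.7%) and 7 CpG dinucleotides, and 35.7% held the box. Among the members, Hcn4 (2 boxes) and Hcn2 held it. TTCAGCACC, a stretch of the element bound by the neuronal gene repressor REST, was in 0.371% of all windows on either strand and in none of the members' windows.

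Scn1a, the sodium channel alpha subunit on which fast-spiking interneurons depend and whose loss causes Dravet syndrome, was highest in GABAergic-like nuclei of both libraries. Of the GABAergic-like UMIs it made up 359 CPM in the Cre-labelled library (350.4 to 368, from 6156 UMIs) and 322 CPM in the control (289.6 to 357, from 363 UMIs). Each level was above every other named class of its library beyond counting error. In the Cre-labelled library CA1-like nuclei followed with 253 CPM, medium spiny neuron-like with 239, OPC-like (oligodendrocyte precursors) with 238, subiculum or cortex excitatory-like with 206 and DG granule-like with 199. Neighbours in that order did not differ beyond their intervals. In the control the order after GABAergic-like nuclei was medium spiny neuron-like (207 CPM), OPC-like (199) and DG granule-like (185), again without separation. Cajal-Retzius-like nuclei, the reelin-secreting neurons of the outer layers, were the neuronal exception. Scn1a stood there at 67.7 CPM (35.0 to 118, 12 UMIs) in the Cre-labelled library and at 17.2 CPM (7.89 to 32.7, 9 UMIs) in the control, below DG granule-like nuclei beyond counting error in both.

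Within the GABAergic-like class Scn1a differed between clusters. Of 1968 nuclei in the Cre-labelled library, 566 formed cluster 8, led by Kcnmb2 and Nxph1, and 281 formed cluster 16, led by Adarb2 and Dlx6os1. Scn1a stood at 492 CPM in cluster 8 and at 448 CPM in cluster 16. In cluster 5, with 1121 nuclei led by Nxph1, Ankfn1 and Htr2c, it stood at 269.0 CPM (259 to 280), below both others beyond counting error. Neuronal clusters 1 (342 CPM), 10 (332), 4 (317) and 12 (303) of that library, which stayed unnamed, were also above cluster 5 beyond counting error. The control, with 70, 16 and 22 nuclei in clusters 5, 8 and 16, had 278, 524 and 288 CPM, so cluster 8 was again above cluster 5 beyond counting error.

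Scn2a, an alpha subunit of unmyelinated axons and the early axon initial segment, was the most even of the members over neuronal clusters of the Cre-labelled library. Among 13 neuronal clusters of the Cre-labelled library with at least 100 nuclei, its highest level (413 CPM in cluster 10, nearest to CA1 by markers but unnamed) was 1.46-fold its lowest (283 CPM, GABAergic-like cluster 8). By the same measure the ratio was 2.47 for Scn1a, 3.42 for Scn3a, 2.03 for Scn8a, 2.01 for Scn2b, 5.61 for Scn3b and 2.36 for Hcn2. By class, Scn2a was highest in DG granule-like nuclei, with 392 CPM (382 to 403) in the Cre-labelled library and 369 CPM (351 to 388) in the control. Subiculum or cortex excitatory-like (382 CPM), medium spiny neuron-like (363), CA1-like (329.8), GABAergic-like (329.6) and Cajal-Retzius-like nuclei (322) of the Cre-labelled library formed an order without a gap beyond counting error. In the control GABAergic-like nuclei followed with 314 CPM, medium spiny neuron-like with 263, Cajal-Retzius-like with 239.5 and neuroblast-like with 187.

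Scn3a, the alpha subunit that prevails in the embryonic rodent brain, was highest in DG granule-like nuclei, where new neurons are added in adult life. The level was 237 CPM in the Cre-labelled library (229 to 245, from 3168 UMIs) and 239 CPM in the control (224 to 254, from 1009 UMIs). It was lowest among the neuronal clusters in cluster 12 (69.2 CPM). That cluster, of 439 nuclei in the Cre-labelled library and 6 in the control, had CA3 as its nearest class by markers but stayed unnamed. CA1-like nuclei had 89.9 CPM (84.0 to 96.1), below every other named neuronal class of that library beyond counting error. In the control, DG granule-like, medium spiny neuron-like (224 CPM), OPC-like (195), neuroblast-like (187), GABAergic-like (168) and Cajal-Retzius-like nuclei (149) followed each other without a gap beyond counting error.

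Scn8a, the alpha subunit of mature nodes of Ranvier and of the distal axon initial segment, had an order over neurons that differed from that of Scn1a. In the Cre-labelled library it was highest in CA1-like nuclei with 359 CPM (347 to 371), followed by subiculum or cortex excitatory-like (312 CPM) and DG granule-like nuclei (306 CPM). GABAergic-like nuclei stood lower, at 214 CPM (207 to 221), and medium spiny neuron-like nuclei at 198. In the control DG granule-like nuclei had 329 CPM (312 to 347) and GABAergic-like nuclei 205 CPM (179 to 233), so the excitatory class was higher than the inhibitory one beyond counting error in both libraries. For Scn1a the same 2 classes had the opposite order in both libraries. CA1-like nuclei could not be compared between the libraries, with 984 nuclei in the Cre-labelled library and 20 in the control.

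**Figure D1:**
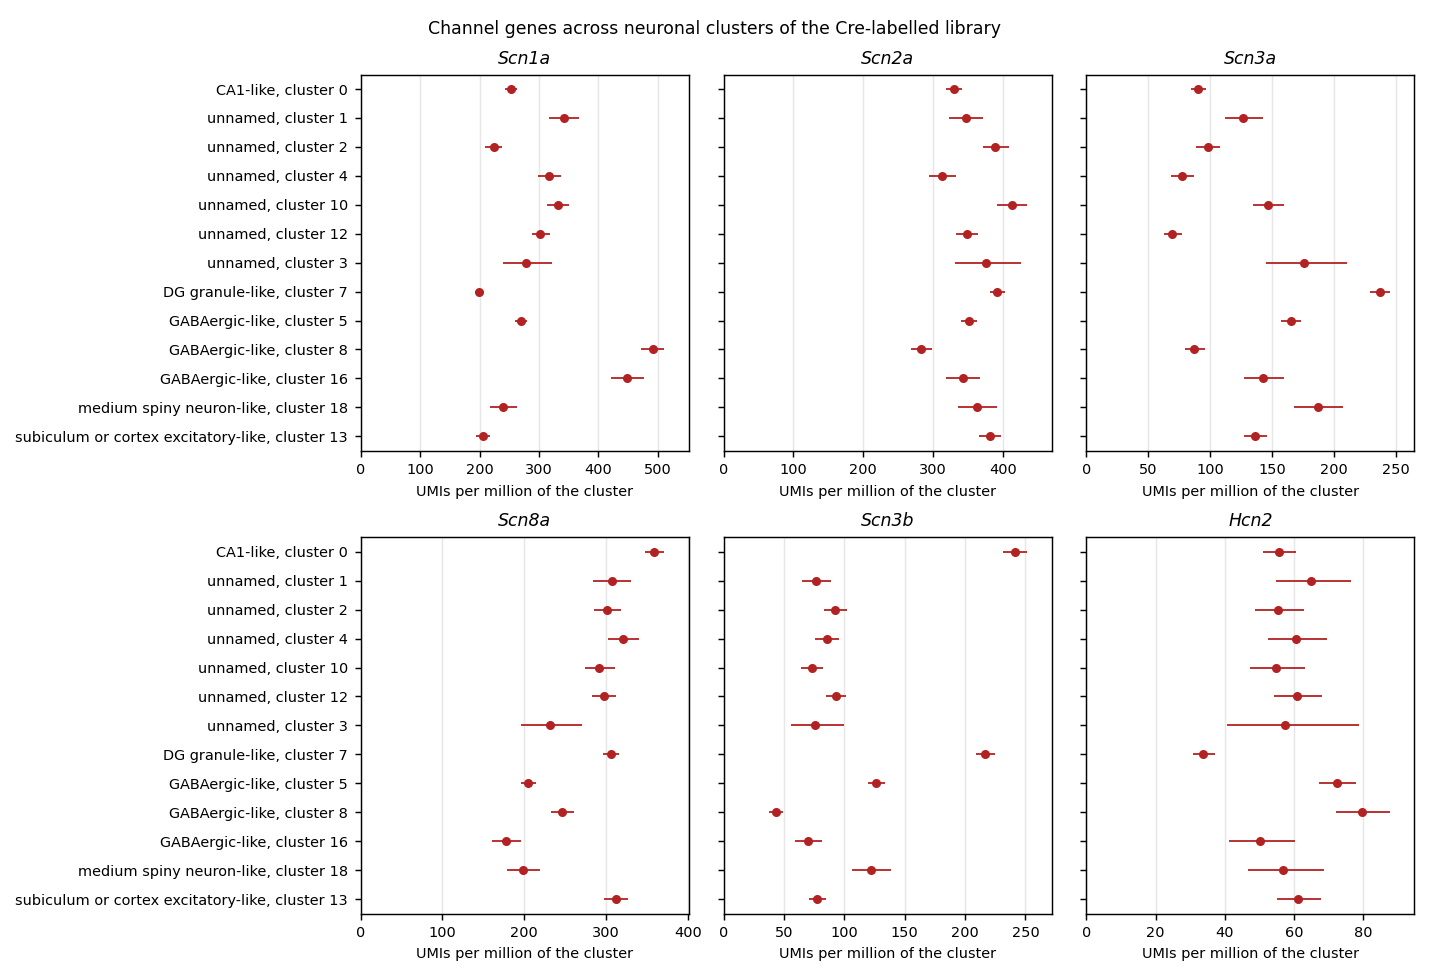
Level of 6 members (CPM, linear axis from 0) in the 13 neuronal clusters of the Cre-labelled library with at least 100 nuclei; bars are exact Poisson 95% intervals. Scn1a stood at 492 CPM in GABAergic-like cluster 8 and at 199 in DG granule-like cluster 7, Scn3a and Scn3b were high in DG granule-like nuclei, and Scn2a varied least.

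Scn3b, the gene of a beta subunit that associates with the alpha subunit without a covalent bond, was highest in CA1-like and DG granule-like nuclei of the Cre-labelled library. CA1-like nuclei had 241 CPM (232 to 252) and DG granule-like nuclei 217 CPM (209 to 225). Medium spiny neuron-like nuclei followed with 122 CPM, GABAergic-like with 94.02 and subiculum or cortex excitatory-like with 77.4. In the control DG granule-like nuclei led with 175 CPM (163 to 188), beyond counting error above medium spiny neuron-like (106 CPM) and GABAergic-like nuclei (64.7 CPM). The lowest of the 13 neuronal clusters was GABAergic-like cluster 8 with 43.1 CPM, the one in which Scn1a was highest.

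Scn2b, the gene of a beta subunit linked to the alpha subunit by a disulfide bond, was at low levels with wide intervals. In the Cre-labelled library it lay between 16.9 CPM (3 UMIs, Cajal-Retzius-like) and 32.2 CPM (431 UMIs, DG granule-like) over the 6 named neuronal classes. In the control it lay between 23.9 CPM (27 UMIs, GABAergic-like) and 32.5 CPM (11 UMIs, medium spiny neuron-like) over the mature neuronal classes. No neighbouring classes in the order differed beyond their intervals in either library. In the Cre-labelled library DG granule-like nuclei (29.2 to 35.4 CPM) stood above CA1-like (22.6 to 29.1) and medium spiny neuron-like nuclei (13.7 to 26.9) beyond counting error. Oligodendrocyte-like nuclei of that library had 24.3 CPM (19.9 to 29.3), and no named neuronal class there stood above them beyond counting error. In the control they had 2.47 CPM (1.72 to 3.44), below every mature neuronal class beyond counting error.

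**Figure D2:**
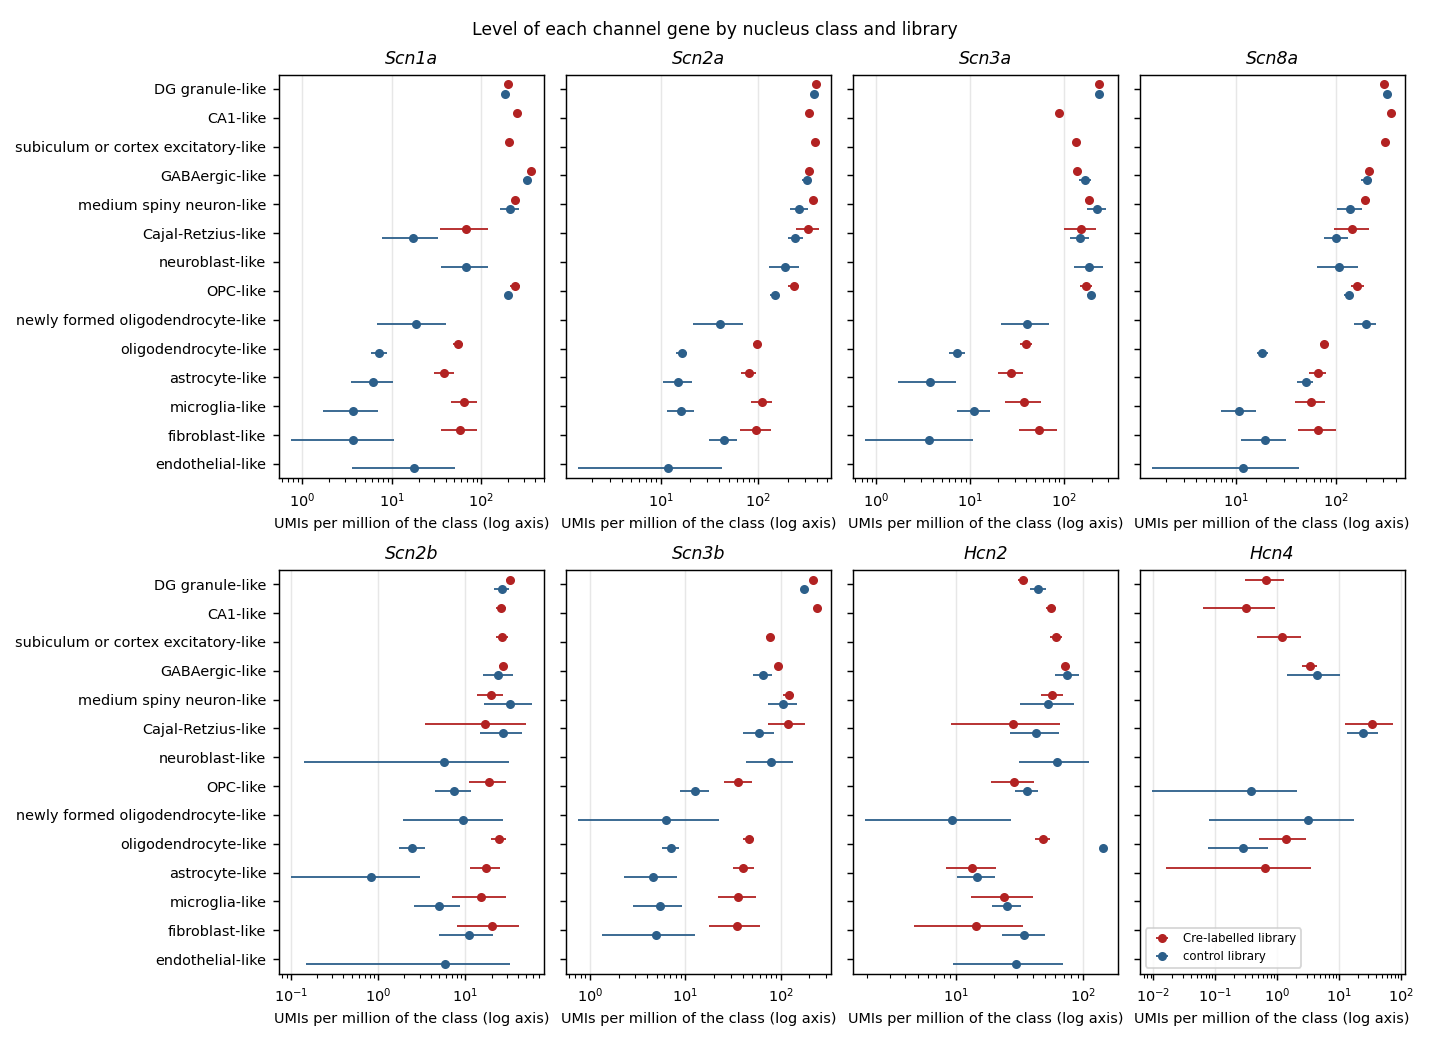
Level of each member (CPM, log axis) in classes of at least 50 nuclei, with exact Poisson 95% intervals; a class with 0 UMIs has no point. Red points are the Cre-labelled library and blue points the control, and the libraries lie close together in most neuronal classes while the sodium channel genes in oligodendrocyte-like, astrocyte-like, microglia-like and fibroblast-like nuclei stand higher in red.

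OPC-like nuclei, the dividing precursors of oligodendrocytes, which are known to carry sodium currents, held all 4 alpha subunit genes in both libraries. Scn1a stood at 238 CPM (209 to 269.9, 244 UMIs) in the Cre-labelled library and at 199 CPM (183 to 217, 535 UMIs) in the control. Scn3a stood at 175 CPM (150.0 to 202) and 195 CPM (179 to 213), and Scn8a at 165 and 136 CPM. Scn2a stood at 230.3 CPM in the Cre-labelled library and at 147 CPM in the control. In the control, where the summed level of 7 neuronal marker genes was 3323 CPM in OPC-like against 16482 CPM in DG granule-like nuclei, Scn1a was 27.4-fold and Scn8a 7.41-fold its level in oligodendrocyte-like nuclei. The beta subunit genes were low there, with Scn3b at 12.7 CPM and Scn2b at 7.45 CPM in the control.

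Shares of nuclei gave the same order for Scn1a. Of OPC-like nuclei, 49.4% (43.9 to 54.9, exact Clopper-Pearson) had a UMI in the Cre-labelled library and 51.5% (47.6 to 55.4) in the control. The corresponding share in oligodendrocyte-like nuclei, taken as background, was 9.84% (8.59 to 11.2) and 1.78% (1.44 to 2.16). The median depth was 3029 and 3951.5 UMIs in OPC-like and 1969 and 2359 UMIs in oligodendrocyte-like nuclei. With each nucleus thinned to 1000 UMIs and the 2 and 0 shallower OPC-like nuclei left out, the shares were 25.2% and 16.6% in OPC-like and 5.50% and 0.624% in oligodendrocyte-like nuclei.

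Along the oligodendrocyte lineage the alpha subunit genes went different ways in the control. Newly formed oligodendrocyte-like nuclei, 55 in the control and 22 in the Cre-labelled library, had Scn8a at 199 CPM (153 to 254, 64 UMIs) and 185 CPM (114 to 283, 21 UMIs). Scn1a was 18.6 CPM there in the control (6 UMIs), Scn3a 40.4 CPM (13 UMIs) and Scn2a 40.4 CPM (13 UMIs), each below OPC-like nuclei beyond counting error. The 22 nuclei of the Cre-labelled library, under the minimum of 50 for a class level, had higher values. Scn1a was 96.8 CPM (48.3 to 173, 11 UMIs) in them, Scn3a 52.8 CPM (6 UMIs) and Scn2a 70.4 CPM (8 UMIs). In mature oligodendrocyte-like nuclei of the control all 4 were low, with Scn8a at 18.3 CPM, Scn2a at 16.5 and Scn1a and Scn3a both at 7.28. Astrocyte-like nuclei of the control held Scn8a at 49.7 CPM (41.2 to 59.5, 119 UMIs), above oligodendrocyte-like and microglia-like nuclei (10.8 CPM) beyond counting error, while Scn1a stood at 6.27 and Scn3a at 3.76 CPM in them.

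Hcn2, an HCN subunit widespread in the brain, had its highest level of all classes in oligodendrocyte-like nuclei of the control. It stood there at 144 CPM (137 to 149.9, 2031 UMIs), against 74.5 CPM in GABAergic-like, 53.1 in medium spiny neuron-like and 44.3 in DG granule-like nuclei of that library. Named neuronal classes held 11.5% of all Hcn2 UMIs in the control, where they were 8.35% of the nuclei. In the Cre-labelled library they held 64.7% and were 48.8% of the nuclei. These shares depend on the cell mix as well as on the level per class. In the Cre-labelled library GABAergic-like nuclei led with 71.8 CPM (67.8 to 75.9). Subiculum or cortex excitatory-like (61.2 CPM), medium spiny neuron-like (57.0), CA1-like (55.6) and oligodendrocyte-like nuclei (47.8) followed. DG granule-like nuclei, with 33.8 CPM (30.7 to 37.0), were lowest of the 13 neuronal clusters of that library.

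The clusters of the oligodendrocyte lineage differed in Hcn2 within the control alone. It was 35.8 CPM in OPC-like and 9.32 CPM (3 UMIs) in newly formed oligodendrocyte-like nuclei. In the mature clusters it was 54.4 CPM in cluster 20 (1317 nuclei), 135 CPM in cluster 24 (1295 nuclei) and 197 CPM (187 to 208) in cluster 23 (2810 nuclei). Clusters 25 and 27, whose nearest class was oligodendrocyte but which stayed unnamed, had 52.5 and 97.4 CPM. The median depth of clusters 20, 24 and 23 in the control was 2373, 2799 and 2194 UMIs, and 4 oligodendrocyte markers summed to 17673, 17247 and 16629 CPM in them. Hcn2 thus differed between clusters 20 and 23 beyond counting error, at similar depth and marker level. Il33, a marker of mature oligodendrocytes, was 585 and 621 CPM in clusters 20 and 23 and 149 CPM in cluster 24.

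Hcn4, the subunit of the cardiac pacemaker current, was rare, with 114 UMIs in all nuclei kept of the Cre-labelled library and 28 in the control. Cajal-Retzius-like nuclei had the highest level in both, 33.9 CPM (12.4 to 73.7, 6 UMIs) and 24.9 CPM (13.3 to 42.6, 13 UMIs). GABAergic-like nuclei followed with 3.38 CPM (58 UMIs) and 4.43 CPM (5 UMIs), below them beyond counting error in both libraries. Small classes such as endothelial-like nuclei (0 UMIs in the control, with an interval up to 21.7 CPM) could not be separated from them. In DG granule-like nuclei 9 UMIs were found in the Cre-labelled library (0.672 CPM) and 0 in the control, with an interval up to 0.874 CPM.

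**Figure D3:**
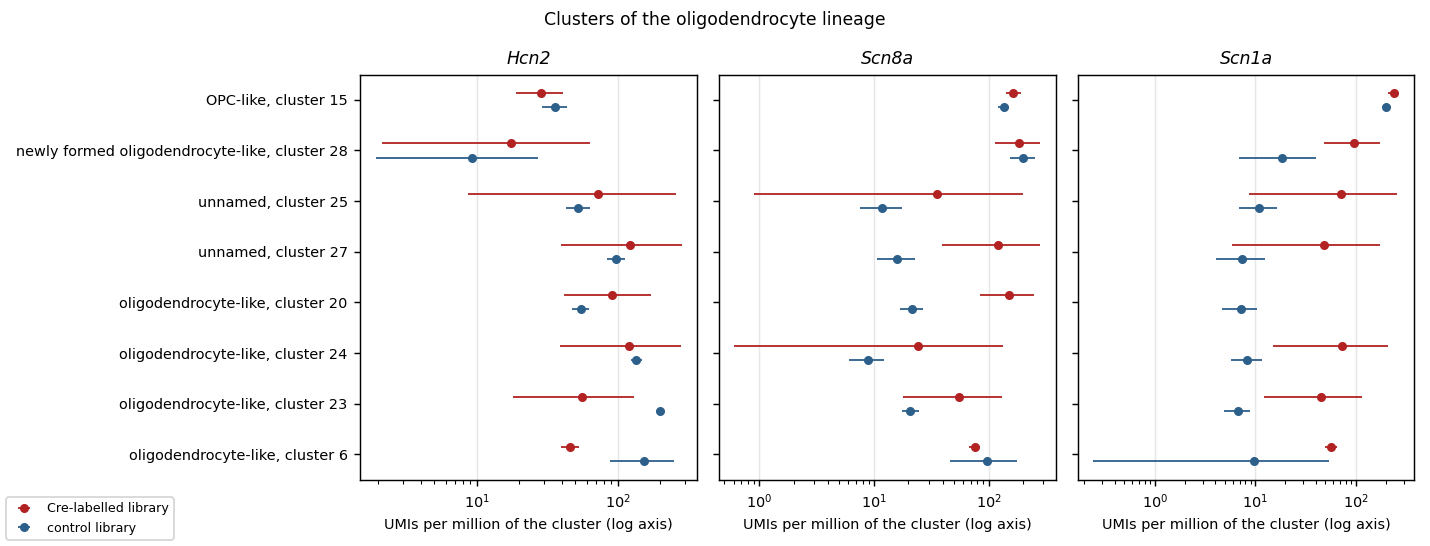
Hcn2, Scn8a and Scn1a (CPM, log axis) in clusters whose nearest class was of the oligodendrocyte lineage, by library, with exact Poisson 95% intervals; a cluster with 0 UMIs has no point. In the control (blue) Hcn2 spans 9.32 CPM in newly formed oligodendrocyte-like nuclei to 197 CPM in cluster 23, and most nuclei of the Cre-labelled library (red) are in cluster 6.

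Between the libraries, a gene was counted as higher or lower from 1.5-fold on, if it had at least 50 UMIs over both in that class. In DG granule-like nuclei 7 members had them and none was 1.5-fold higher or lower in the Cre-labelled library, against 9.72% higher and 5.69% lower of all 13516 genes. The members' median log2 ratio was 0.09 and that of all genes 0.05. The alpha subunit genes lay closest to the control, with log2 ratios of 0.11 (-0.01 to 0.23) for Scn1a, 0.09 (0.01 to 0.17) for Scn2a, -0.01 (-0.12 to 0.09) for Scn3a and -0.10 (-0.19 to -0.02) for Scn8a. Scn3b was higher in the Cre-labelled library, 217 against 175 CPM, a log2 ratio of 0.31 (0.19 to 0.42), and 0.07 with nuclei thinned to 1000 UMIs. Scn2b, with 431 and 110 UMIs, was 32.2 against 26.1 CPM, a log2 ratio of 0.31 whose interval reached from 0.00 to 0.62. Hcn2 was lower, 33.8 against 44.3 CPM, a log2 ratio of -0.39 (-0.64 to -0.14). The markers of oligodendrocytes, the class richest in Hcn2 in the control, summed in DG granule-like nuclei to 467 CPM for the Cre-labelled library and to 1384 CPM for the control, with all 4 above 0 in both. With free RNA subtracted the log2 ratio of Hcn2 was -0.67 at the median estimate, past 1.5-fold lower, and -0.48 at the lower estimate.

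In GABAergic-like nuclei all 8 members had 50 UMIs, and none was 1.5-fold higher or lower, against 15.9% higher and 10.9% lower of 14300 genes. Their median log2 ratio was 0.07 (all genes 0.05). The largest difference in size was that of Scn3b, 94.02 CPM (1611 UMIs) against 64.7 CPM (73 UMIs), a log2 ratio of 0.54 (0.20 to 0.90). It was 0.07 with nuclei thinned and -0.20 with free RNA subtracted at its median estimate. In cluster 5 alone it was 0.59 (0.23 to 0.97) and in cluster 8 alone 0.50 (-0.65 to 1.96). Over all settings with a value it lay between -0.20 and 2.45, and 4 were past 1.5-fold. Scn3a had -0.28 (-0.49 to -0.06), and -0.25 in cluster 5 alone, -0.66 in cluster 8 alone and 1.02 in cluster 16 alone, where the control had 11 UMIs in 22 nuclei. Scn1a had 0.16 (0.01 to 0.32), Hcn2 -0.05 (-0.37 to 0.28) and Hcn4 -0.39 (-1.69 to 1.29). The control's part of this class rests on 108 nuclei.

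Among the other listed genes of these channels (further subunits, the sodium leak channel, partners and anchors, 27 in all), 20 had 50 UMIs in DG granule-like nuclei, of which 4 were higher and 1 lower, with a median of -0.07. Among the higher ones, Scn9a was 56.0 against 23.4 CPM (log2 ratio 1.25, 0.95 to 1.57). Scn7a, a sodium sensor of glia, rests on 75 and 5 UMIs. Scn9a stood at 10.8 against 0.989 CPM in oligodendrocyte-like nuclei, and the part of free RNA in its difference was not tested. Cntn2, a contactin of axons and oligodendrocytes, was the lower one, 9.71 against 52.6 CPM (-2.44). It was lower in all 7 compared classes and highest in oligodendrocyte-like nuclei (357 and 568 CPM). In GABAergic-like nuclei 1 of 22 was higher and 3 lower, Cntn2 (-1.60), Pex5l (-0.74), which encodes the HCN-binding protein TRIP8b, and Nfasc (-0.67), an axon initial segment and paranode protein. These 3 genes were all higher in oligodendrocyte-like than in GABAergic-like nuclei of both libraries. The summed oligodendrocyte markers in GABAergic-like nuclei were 199.7 CPM in the Cre-labelled library and 1462 CPM in the control, and their part in these differences was not tested.

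In oligodendrocyte-like nuclei 7 members had 50 UMIs, and 6 were higher and 1 lower in the Cre-labelled library, against 26.3% higher and 8.13% lower of 13046 genes. The median log2 ratio was 2.56 for the members and 0.18 for all genes. All 6 sodium channel genes were higher, from 2.07 (1.83 to 2.31) for Scn8a to 3.29 (2.73 to 3.89) for Scn2b. Scn1a was 55.4 against 7.28 CPM and Scn2a 97.1 against 16.5 CPM. The 7 neuronal markers, all above 0 in every class of both libraries, moved with them and summed to 7052 against 534 CPM in these nuclei. Free RNA, with the composition of the whole library, was estimated from the markers of other classes and subtracted. At the median estimate, which took it as 53.3% of the UMIs of these nuclei in the Cre-labelled library and 25.01% in the control, 5 of the 6 sodium channel genes were at 0 in both libraries. Only Hcn2 kept 50 UMIs. Scn2b kept 42.2 UMIs in the Cre-labelled library and 4.70 in the control, under that minimum, with a log2 ratio of 5.27. That estimate gives no value for the other sodium channel genes that were higher. At the lower estimate (26.0% and 11.9%) 5 members could be compared. Scn2a (1.49), Scn2b (3.77) and Scn3b (2.36) were higher there, Scn8a was 0.37 and Hcn2 -1.77.

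Most nuclei of the class lie in different clusters in the libraries, and cluster 6 had 1980 of the 2063 in the Cre-labelled library and 40 of the 5462 in the control. Within cluster 6 alone the sodium channel ratios were smaller or wider, with few control UMIs. Scn1a had 2.56 (0.07 to 7.87, 1 control UMI) and Scn2a 1.05 (-0.18 to 2.68, 5 control UMIs). Scn3a had 1.04 (-0.83 to 4.101) and Scn3b 1.30 (-0.57 to 4.36), each from 2 control UMIs, and Scn2b had none in the control. The intervals of Scn2a, Scn3a and Scn3b thus included 0. Scn8a was 76.1 CPM in the Cre-labelled library and 96.2 CPM in the control (-0.34, -1.24 to 0.74). The 40 control nuclei of cluster 6 had 4107 CPM of summed neuronal markers. In cluster 20 of the Cre-labelled library (27 nuclei) Scn8a stood at 150 CPM (84.1 to 248, 15 UMIs). That was beyond counting error above its level in the whole control class (18.3 CPM, 16.1 to 20.7). Cluster 6 alone was the only setting in which the Scn8a ratio turned direction. Over all settings with a value that ratio lay between -0.34 and 2.80. The Scn2a ratio stayed higher, between 0.88 and 2.86.

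Hcn2 went the other way in the same nuclei. It was 47.8 CPM (41.6 to 54.8, 209 UMIs) in the Cre-labelled library against 144 CPM in the control (2031 UMIs). The log2 ratio was -1.59 (-1.80 to -1.38). Within cluster 6 alone Hcn2 was 45.9 CPM (190 UMIs) against 154 CPM (88.0 to 249.9, 16 UMIs), a log2 ratio of -1.74 (-2.48 to -0.91). Within cluster 23 it was 55.8 CPM (5 UMIs) against 197 CPM, -1.82 (-3.45 to -0.60). Within cluster 20 the direction turned, 90.1 CPM (9 UMIs) against 54.4 CPM, 0.73 (-0.42 to 1.68), and within cluster 24 it was -0.16 (-1.79 to 1.07) from 5 UMIs in the Cre-labelled library. With free RNA subtracted the log2 ratio of the class was -2.28 or -1.77, in male nuclei -1.58 and in female nuclei -1.93. Oligodendrocyte genes were lower as well, with St18 at -0.81, Cntn2 at -0.67 and Pex5l at -0.63, and the 4 markers summed to 10232 against 17033 CPM. Their part in the Hcn2 difference was not tested.

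In astrocyte-like nuclei 6 members had 50 UMIs, with 4 higher and none lower, against 14.1% higher and 6.62% lower of 9610 genes. Their median log2 ratio was 2.52 (all genes 0.04). Scn1a was 38.8 against 6.27 CPM, Scn2a 80.2 against 15.04, Scn3a 27.4 against 3.76 and Scn3b 40.8 against 4.60. Scn8a, the member that stood out in astrocyte-like nuclei of the control, was within 1.5-fold, 66.2 against 49.7 CPM (0.41, 0.02 to 0.81), and so was Hcn2, 13.4 against 14.6 CPM (-0.13, -0.98 to 0.69). The neuronal markers summed to 6411 against 1343 CPM, with all 7 above 0 in both. Subtracting free RNA at either estimate took Scn1a, Scn2a and Scn3a to 0 in both libraries and left only Scn8a of the 6 members with 50 UMIs, so it gives no ratio for them. Scn8a was then at 0 in the Cre-labelled library and above 0 in the control. In microglia-like nuclei 2 of 3 members were higher, Scn2a (109 against 16.1 CPM) and Scn8a (56.1 against 10.8 CPM), against 15.6% higher and 12% lower of 8770 genes, while Hcn2 was 23.8 against 25.2 CPM. In fibroblast-like nuclei Scn2a alone had 50 UMIs and was higher, 95.2 against 44.1 CPM (1.11, 0.38 to 1.83), against 11.7% higher and 14.7% lower of 5079 genes. Neuronal markers summed to 7817 against 1413 CPM in the former and to 7688 against 2613 CPM in the latter.

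OPC-like nuclei differed from these glia. Of 6 members, 2 were higher and none lower, against 11.3% and 7.39% of 9327 genes, with a median of 0.27 (all genes 0.01). The higher ones were Scn2a (0.65, 0.41 to 0.88) and Scn3b, 36.1 against 12.7 CPM (1.51, 0.80 to 2.23). Scn1a had 0.26 (0.03 to 0.48), Scn3a -0.16 (-0.41 to 0.09), Scn8a 0.28 (0.01 to 0.55) and Hcn2 -0.34 (-0.99 to 0.27). Neuronal markers summed to 7634 against 3323 CPM in OPC-like nuclei. With free RNA subtracted at the lower estimate Scn2a was 0.32, Scn8a -0.13 and Scn1a 0.03, and Scn3b kept under 50 UMIs (-0.25). At the median estimate, which took 65.3% and 33.1% of the UMIs of these nuclei as free RNA, 4 members could be compared and 3 were lower. They were Scn1a (-0.63), Scn2a (-2.29) and Scn8a, which was at 0 in the Cre-labelled library, while Scn3a was -0.30.

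**Figure D4:**
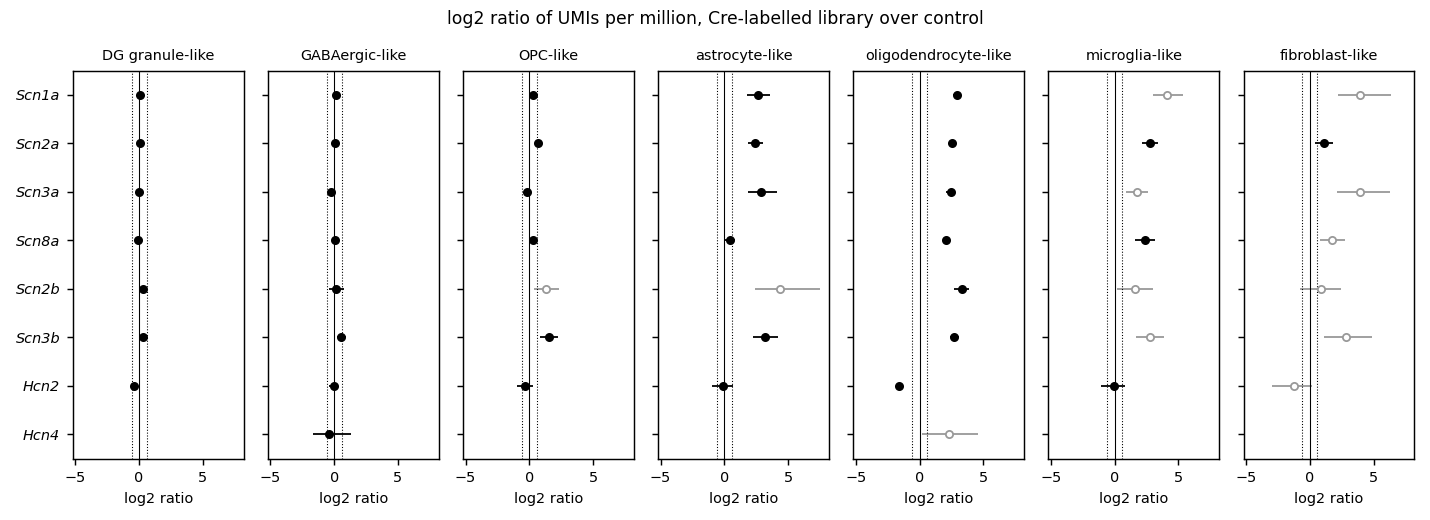
log2 ratio of each member between the libraries (Cre-labelled over control) in the 7 compared classes, with exact conditional 95% intervals; filled points had 50 UMIs over both libraries, open points fewer, and dotted lines mark 1.5-fold. No filled point of DG granule-like or GABAergic-like nuclei lies outside the dotted lines, and Hcn2 in oligodendrocyte-like nuclei is the only filled point below them.

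The ratio of a member to Syt1, a synaptic vesicle gene of neurons, was set beside these levels. In the Cre-labelled library Scn1a stood at 81.4 to 96.7 CPM per 1000 CPM of Syt1 in astrocyte-like, fibroblast-like, oligodendrocyte-like and microglia-like nuclei, within the range of its neuronal classes (34.0 to 118). OPC-like nuclei had 502 there, outside it. For Scn2a the 4 glial and stromal classes had 136 to 168, the neuronal classes 108 to 161 and OPC-like nuclei 486. Astrocyte-like (168), oligodendrocyte-like (164) and microglia-like nuclei (163) thus lay just above the neuronal range of Scn2a. Scn2b in the 4 classes and Hcn2 in oligodendrocyte-like nuclei lay further outside their neuronal ranges. Scn2b had 22.9 to 40.9 in the 4 classes against 5.86 to 12.5 in the neuronal ones, and Hcn2 80.6 in oligodendrocyte-like nuclei against 13.1 to 23.6. In the control, Scn8a had 875 in astrocyte-like and 1488 in newly formed oligodendrocyte-like nuclei, against 49.4 to 123 in its mature neuronal classes. Fewer UMIs of Syt1 make these control ratios less precise.

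**Figure D5:**
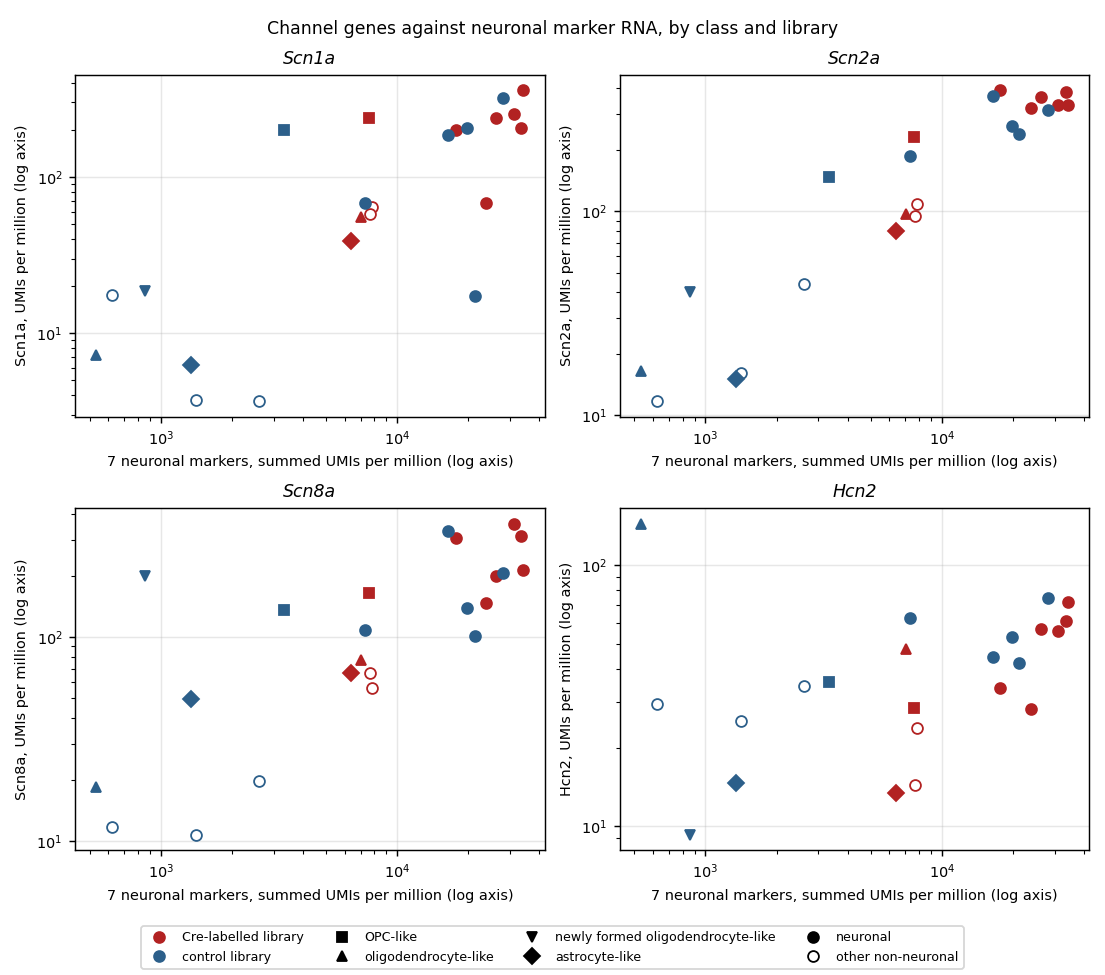
Level of 4 members against the summed level of 7 neuronal markers (both in CPM, log axes), 1 point for each class and library. Scn1a and Scn2a in oligodendrocyte-like and astrocyte-like nuclei are higher in the Cre-labelled library, where the neuronal markers are too, whereas OPC-like nuclei (squares), newly formed oligodendrocyte-like nuclei for Scn8a and control oligodendrocyte-like nuclei for Hcn2 (144 CPM at 534 CPM of markers) stand apart.

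For each member the genes with the most similar profile were found over 18 class and library profiles (10 and 8, classes with at least 100 nuclei) as Pearson r of log2(CPM + 5) among 11344 genes. These profiles share libraries and free RNA, so r is a description. Scn1a was most like Neto1 (0.97), Ralyl and Tenm1, Scn2a like Ica1 (0.98) and Sptbn4, and Scn3a like Gabrb2 (0.96), Rims1 and Nexmif. Scn8a was most like Lmtk3 (0.98), Unc80 and Kcnj3. Sptbn4 encodes a spectrin of the axon initial segment, and Unc80 a subunit of the sodium leak channel complex. Scn3b was most like Cnksr2 (0.97), B230303A05Rik and Dmtn, and Scn2b like Cx3cl1 (0.93), B4galnt4 and Pnma2. Hcn2 had lower values, with Pak5 (0.89), Aig1 and Arhgap33. Hcn4 was most like Reln (0.94), a Cajal-Retzius marker that helped to name that class, Mpv17l and Klhl1. Cajal-Retzius-like nuclei entered these profiles from the control alone, where Hcn4 was 24.9 CPM from 13 UMIs. It was 4.43 CPM or less in every other profile, so its r rests mostly on that profile. Among the members, r lay between 0.69 (Scn1a and Scn2b) and 0.93 (Scn2a and Scn3a) for pairs of sodium channel genes and between 0.15 and 0.28 for Hcn2 with them.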

How the data were processed

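Single-nucleus 10x libraries of mouse hippocampus, 1 per group, were used as deposited. The deposited values are UMI counts per gene and barcode, not normalized, and per the file headers Cell Ranger 9.0.1 wrote them. The submitters' processing notes also name bcl2fastq 5.0.1, Seurat 4.1.0 and GRCm39. Aligner settings and any earlier removal of doublets or free RNA are not stated there. Genes were matched by symbol.

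Barcodes were kept as nuclei from 500 genes and 800 UMIs on, with mitochondrial UMIs under 5%. Doublets were called with Scrublet (scanpy 1.11.5). Its automatic threshold marked 7.97% of the Cre-labelled library and was used there. In the control it marked 0.016% and had not worked, so the 1332 highest scores (10.6%) were removed, near the expected rate. Both libraries were clustered together (2000 variable genes, 30 principal components, 15 neighbours, Leiden in igraph 0.11.9 at resolution 1). Clusters were named from 203 markers of 23 classes. A name needed at least 3 class markers among the 100 leading genes, or 50% of them at 50% or more of their highest cluster level. That naming rule was set after the clusters were seen and without looking at the members. Unnamed clusters held 23.0% and 16.1% of nuclei.

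UMIs were summed per class and library and given as CPM with exact Poisson intervals. Ratios are between these sums, with exact conditional binomial intervals, for the 7 classes with at least 100 nuclei in each library, and a class level needed 50 nuclei. Genes with 50 UMIs over both libraries entered the counts of genes past 1.5-fold. Genes named beside the members are those of a list of 27 subunits, partners and anchors, by the fold rule, and the 3 most alike genes of each member with at least 20 CPM in a profile. Intervals and ratios were tested on simulated data. Alternatives were TMM scaling (edgeR 4.0.16, R 4.3.3), other filters, resolutions and centring, thinning, free RNA subtraction, means over nuclei, nuclei of 1 sex, other UMI minimums and a 2-fold rule. Single clusters were added after seeing the data. Other tools were scipy 1.17.1, numpy 2.4.6, pandas 2.3.3, Python 3.11.15, scikit-learn 1.9.0 and matplotlib 3.10.9. The members and lists were chosen with earlier results of these data known. The coordinates and promoter windows are RefSeq's, on GRCm38.p6, and no coordinate of the files was used with them. Some listed or alike genes are not reported here.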

Additional observations from a re-analysis of the deposited data

How the results depend on the processing

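No paired analysis was possible because each group is 1 library. Counts of members past 1.5-fold, higher or lower in the Cre-labelled library, moved as follows. With free RNA subtracted at the median estimate, the count of higher members was 0 in place of 6 in oligodendrocyte-like, 0 in place of 4 in astrocyte-like, 0 in place of 2 in both OPC-like and microglia-like and 0 in place of 1 in fibroblast-like nuclei, and the count of lower ones was 1 in DG granule-like, 1 in astrocyte-like and 3 in OPC-like nuclei in place of 0. These counts fell with the number of members that kept 50 UMIs. That number was 1 of 7 in oligodendrocyte-like, 1 of 6 in astrocyte-like, 4 of 6 in OPC-like, 0 of 3 in microglia-like and 0 of 1 in fibroblast-like nuclei. The counts alone thus cannot show whether ratios became smaller. Of the higher members, Scn2a in OPC-like nuclei kept 50 UMIs, and its log2 ratio went from 0.65 to -2.29. At the lower estimate 3 were higher in oligodendrocyte-like and 0 in astrocyte-like, OPC-like, microglia-like and fibroblast-like nuclei, and 1 was lower in astrocyte-like nuclei, with 5, 1, 5, 0 and 0 members left in the order of classes above. Thinning left 1 higher in astrocyte-like, 1 in microglia-like and 0 in fibroblast-like nuclei. Male nuclei gave 1 higher in DG granule-like, 2 in astrocyte-like and 1 in OPC-like nuclei, and female nuclei 0 in microglia-like, 1 in astrocyte-like and 1 in OPC-like nuclei. A minimum of 200 UMIs left 1 in OPC-like and 0 in astrocyte-like, microglia-like and fibroblast-like nuclei. A minimum of 20 UMIs gave 6 in microglia-like and 4 in fibroblast-like nuclei, with 1 lower in the latter. In GABAergic-like nuclei 1 was higher with the looser filter and with doublets kept, and 1 lower by mean CPM. Resolution 0.5 gave 2 higher in fibroblast-like nuclei, the stricter filter 1 higher in microglia-like, doublets kept 1 lower in microglia-like and the 2-fold rule 1 higher in OPC-like nuclei.

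Of 16 ratios past 1.5-fold, 4 turned direction under some setting, namely Scn8a in oligodendrocyte-like cluster 6 alone (-0.34), Hcn2 in cluster 20 alone (0.73), Scn2a in OPC-like nuclei at the median free RNA estimate (-2.29) and Scn3b there at the lower estimate (-0.25). Of 22 ratios within 1.5-fold, 16 changed sign under some setting. Among these, Scn3a in GABAergic-like cluster 16 alone (1.02) and Scn1a in OPC-like nuclei at the median estimate (-0.63) then passed 1.5-fold the other way, and Scn3b in GABAergic-like nuclei was -0.20 at that estimate. The cause was not tested. Over the other settings that are not single clusters, Hcn2 in oligodendrocyte-like nuclei stayed lower, from -2.28 (median free RNA estimate) to -1.38 (doublets kept). TMM moved ratios in oligodendrocyte-like nuclei by -0.17. GABAergic-like and fibroblast-like nuclei were too few for the split by sex and for centred libraries, fibroblast-like nuclei also for the stricter filter, and microglia-like nuclei for the male split. Depth limits Hcn4 and Scn2b most, and 108 control nuclei limit every GABAergic-like ratio.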
